A study of Mus musculus with 10 samples.

Results

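The genes described here encode channels, a cotransporter and a channel regulator that move sodium, chloride, bicarbonate and water across epithelia. They are the sodium channel subunits *Scnn1a* and *Scnn1g*, the ubiquitin ligase *Nedd4l*, the aquaporins *Aqp1* and *Aqp4*, the chloride channel *Clcn2* and the sodium bicarbonate cotransporter *Slc4a4*. They were chosen by name as lung fluid transport genes, and all 7 were found among the 17813 genes measured, each by 1 probe set that names that gene alone. The study profiled tip epithelium of the embryonic mouse lung on 5 arrays at E17.5 and 5 arrays at E11.5. The E17.5 cells were GFP+ cells collected by flow cytometry from lungs dissociated with trypsin/EDTA, after tamoxifen at E16.5 (150 µg per g body weight of the pregnant female). The E11.5 cells were tips cut from the lung by hand after dispase, and no tamoxifen is described for them. Embryos of both stages are labelled Id2-CreER; Rosa26R-fGFP, so that in the E17.5 samples GFP marks cells, and descendants of cells, in which the *Id2* locus drove the recombinase around the time of tamoxifen. Stage, tamoxifen and the way of collecting cells changed together, and their contributions cannot be told apart. The arrays are labelled as biological replicates, and neither the number of embryos behind each nor their litters are given in the labels.

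The fetal lung is filled with liquid that its epithelium secretes, mainly by moving chloride into the lumen, with water following. Around birth the direction turns: sodium enters epithelial cells through the apical epithelial sodium channel (ENaC), is pumped out by Na,K-ATPase on the other face, and water follows through the cell layer. ENaC is built from subunits encoded by *Scnn1a*, *Scnn1b* and *Scnn1g*, and NEDD4L, the product of *Nedd4l*, tags these subunits with ubiquitin so that they leave the membrane. Aquaporins are water pores, AQP1 being best known in the lung from capillary endothelium and AQP4 from the basolateral face of airway epithelium.

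Promoter sequence was examined because *Scnn1g* and *Aqp1* were among the members with higher signals at E17.5, and because ENaC genes are known glucocorticoid targets. RefSeq promoter windows on GRCm38.p6 were given for 4 of the 7 genes (*Scnn1g*, *Aqp1*, *Clcn2* and *Slc4a4*, the last with a pair of starts), whereas *Scnn1a*, *Nedd4l* and *Aqp4* are named only. In the 250 bases before each start, the glucocorticoid receptor hexamer AGAACA, searched on both strands, was found in none of the 5 windows, and it was found in 16.1% of all 32851 windows. The TATA box TATAAA, searched on the gene's strand, was likewise in none of the 5, and in 7.59% of all windows. The GC box GGGCGG, searched on both strands, began 98 and 67 bases before the start of *Scnn1g*, 190 bases before that of *Aqp1*, 37 before that of *Clcn2* and 115 before the first start of *Slc4a4*. It was found in 32.7% of all windows, and a match or its absence describes only whether these letters are in the window. The stretches of *Scnn1g* (chr7:121734229-121734419, plus strand) and *Aqp1* (chr6:55336049-55336298, plus strand) are shown 5′ to 3′ with GC boxes in capitals. That of *Scnn1g* holds only the first 191 of its 250 bases, since it stops where the annotated gene begins. Its searched window runs on to position 121734478, so the *Scnn1g* distances above count from a start beyond the printed end.
Scnn1g: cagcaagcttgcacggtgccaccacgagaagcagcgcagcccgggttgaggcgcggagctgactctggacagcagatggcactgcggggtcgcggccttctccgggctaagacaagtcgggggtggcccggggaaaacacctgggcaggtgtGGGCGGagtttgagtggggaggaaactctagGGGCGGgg
Aqp1: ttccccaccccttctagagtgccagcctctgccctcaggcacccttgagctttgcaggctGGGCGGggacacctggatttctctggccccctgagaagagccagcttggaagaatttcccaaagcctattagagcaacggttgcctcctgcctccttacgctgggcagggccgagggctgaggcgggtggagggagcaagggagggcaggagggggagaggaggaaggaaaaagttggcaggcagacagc

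Values are log2 signals as deposited, on which a difference of 1 is a 2-fold change, and array medians were 7.14 to 7.23 at E17.5, against 7.01 to 7.14 at E11.5. Upper quartiles were 9.996 to 10.04 at E17.5, compared with 9.42 to 9.46 at E11.5, so the bright end of the distribution differed between stages. The median difference over all genes was 0.03, and it was -0.10 after each array was centred on its median and -0.04 after quantile normalization. Epithelial list means were 12.39 to 12.72 at E17.5, against 11.49 to 11.80 at E11.5, with 9 of 15 genes higher (*Grhl2* by 4.55, *Krt19* by 2.23 and *Epcam* by 1.91), 3 lower and 3 not called. Of 9 distal tip markers, 4 were higher (*Id2* by 2.10), 3 lower (differences of -2.79 for *Spry2* and -1.87 for *Etv4*) and 2 not called. Alveolar type 2 markers were higher for 9 of 11 genes (*Slc34a2* by 9.26) and lower for 2. Their list means were 12.11 to 12.42 at E17.5, against 7.89 to 8.14 at E11.5. Club and secretory airway markers were higher for 5 of 6 genes (*Scgb1a1* by 8.97) and lower for 1. Their list means were 10.60 to 11.15 at E17.5, against 6.23 to 6.55 at E11.5. Endothelial markers were higher at E17.5 for 13 of 15 genes, with list means of 9.02 to 10.86 against 5.75 to 6.69 at E11.5, although vessels are not epithelium. Macrophage and monocyte markers were higher for 12 of 15 genes, with list means of 8.85 to 9.66 at E17.5, against 5.49 to 6.25 at E11.5. In such bulk samples, fewer cells of a type and less RNA per cell cannot be told apart.

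Of the 7 genes, 4 were higher at E17.5 (*Scnn1a*, *Scnn1g*, *Nedd4l* and *Aqp1*) and 3 were lower (*Aqp4*, *Clcn2* and *Slc4a4*), by limma at an adjusted p under 0.05. A change was common in these arrays, since 36.9% of all genes were called higher, 31.5% lower and 68.4% in either direction. For each of the 7 genes the stages were fully separated, with no array inside the range of the other stage, and over all genes such a separation was seen in 32.3% upwards and 26.3% downwards. A call alone therefore says little about a gene here. The estimated change was over 2-fold for all 7, as it was for 24.2% of all genes upwards and 16.3% downwards, and 21 genes (0.118%) had a difference at least as large as that of *Aqp1*.

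**Figure D1:**
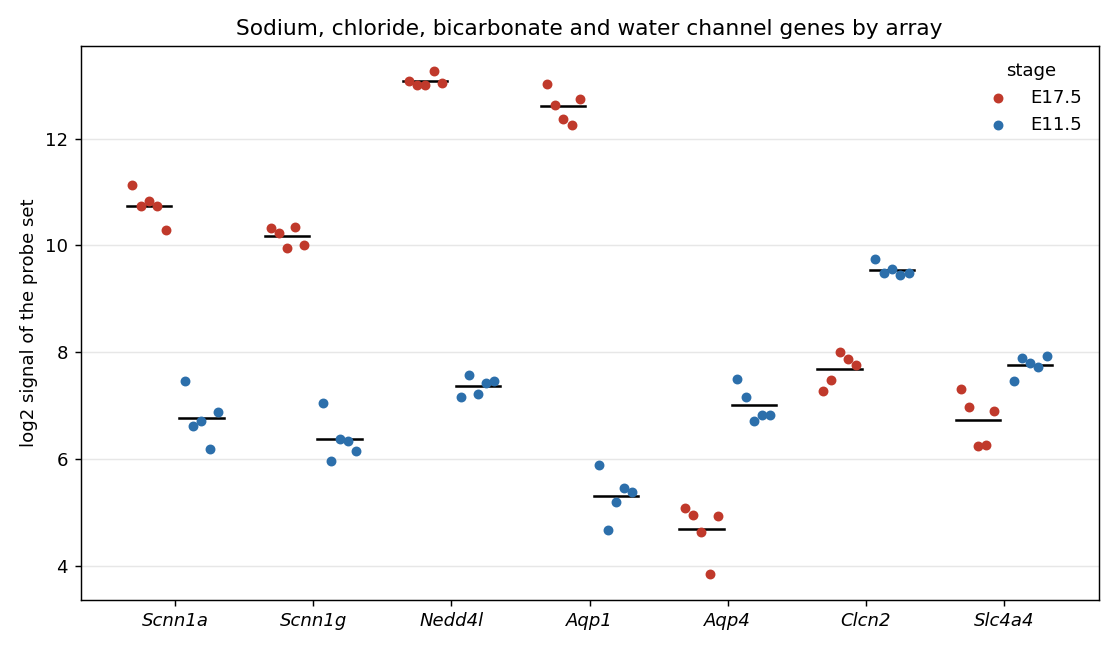
The log2 signal of each of the 7 genes (vertical axis) on each array, with E17.5 (red) left of E11.5 (blue) for each gene, 1 point per array and a bar at the mean of 5. The stages do not overlap for any gene, and the gap between them ranges from 0.16 for *Slc4a4* to 6.37 for *Aqp1*.

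The sodium channel subunits rose together. *Scnn1a*, which encodes the alpha subunit that the channel needs to conduct, had log2 signals of 11.13, 10.73, 10.84, 10.73 and 10.29 at E17.5, against 7.46, 6.63, 6.71, 6.20 and 6.88 at E11.5. The lowest E17.5 array lay 2.83 above the highest E11.5 array. The means were 10.74 ± 0.30 at E17.5 and 6.78 ± 0.46 at E11.5 (SD, n = 5 each), a difference of 3.97 (SE 0.22, 95% interval 3.49 to 4.44) or 15.6-fold, with an adjusted p of 5.9e-09 by limma. *Scnn1g*, which encodes the gamma subunit, had signals of 10.33, 10.24, 9.96, 10.35 and 10.01 at E17.5, against 7.06, 5.97, 6.38, 6.34 and 6.16 at E11.5. Here too every E17.5 array was far above every E11.5 array, with the E17.5 values close to each other and E11.5 replicate 1 the highest of its stage. It averaged 10.18 ± 0.18 at E17.5 and 6.38 ± 0.41 at E11.5 (SD, n = 5 each), a difference of 3.79 (SE 0.18, 95% interval 3.40 to 4.19) or 13.9-fold (limma adjusted p = 1.7e-09).

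The beta subunit gene *Scnn1b*, which was not among the 7, gave 10.09, 9.53, 9.61, 9.68 and 9.56 at E17.5 and 6.51, 5.23, 6.38, 6.28 and 5.94 at E11.5. It was 12.3-fold higher at E17.5 (difference 3.62, SE 0.22, limma adjusted p = 1.8e-08), so all 3 subunit genes moved between 12.3-fold and 15.6-fold. *Scnn1b* and *Scnn1g* lie on chromosome 7 with 1 annotated gene between them, and *Scnn1a* is on another chromosome. On the same array, the *Scnn1a* signal minus the *Scnn1g* signal was 0.57 ± 0.26 at E17.5 and 0.39 ± 0.34 at E11.5 (SD, n = 5 each). The change of that difference was 0.17 (95% interval -0.28 to 0.59; two-sided exact permutation p = 0.40, 0.40 after adjustment over 3 pairs). An unequal rise of the alpha and gamma subunits was not detected, and the interval leaves room for one of up to 0.59 on the log2 scale.

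In the E11.5 samples the subunit signals sat in the middle of the array. Between 42.4% and 53.4% of probe sets were dimmer than *Scnn1a* on the E11.5 arrays, against 77.6% to 85.8% on the E17.5 arrays. For *Scnn1g* the shares were 74.6% to 78.2% on E17.5 arrays and 40.3% to 49.2% on E11.5 arrays. Without detection calls, how much of these E11.5 signals is background is unknown.

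*Nedd4l*, the ligase that withdraws ENaC from the membrane, rose more than the channel. Its signals were 13.08, 13.00, 13.00, 13.26 and 13.04 at E17.5, against 7.17, 7.58, 7.23, 7.43 and 7.47 at E11.5. Arrays of a stage lay close to each other, and the stages were 5.42 apart at their nearest. The means were 13.08 ± 0.11 at E17.5 and 7.37 ± 0.17 at E11.5 (SD, n = 5 each), a difference of 5.70 (SE 0.10, 95% interval 5.48 to 5.92) or 52.1-fold (limma adjusted p = 6.3e-13), and 96 genes (0.539%) had a difference at least as large. At E17.5 the probe set was brighter than 97.6% to 98.3% of all probe sets, and at E11.5 brighter than 50.3% to 55.1%.

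The *Scnn1a* signal minus the *Nedd4l* signal was -2.34 ± 0.31 at E17.5 and -0.60 ± 0.58 at E11.5 (SD, n = 5 each). This ratio was thus 3.34-fold lower at E17.5 (change -1.74, 95% interval -2.46 to -1.04), and its values did not overlap between stages. The two-sided exact permutation p was 0.0079, the smallest that 5 against 5 arrays allow, and 0.012 after adjustment over 3 pairs. The comparison concerns how much each signal changed, since levels of different probe sets cannot be set against each other. How much of either E11.5 signal is background is unknown, and so is its bearing on this ratio.

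The aquaporins went in opposite directions. *Aqp1* had the widest change of the 7 genes, with signals of 13.02, 12.63, 12.37, 12.26 and 12.74 at E17.5, against 5.89, 4.68, 5.20, 5.47 and 5.39 at E11.5. It was among the brightest probe sets at E17.5, where 94.6% to 97.5% of probe sets were dimmer, and among the dim ones at E11.5, where 26.4% to 38.5% were. The means were 12.60 ± 0.30 at E17.5 and 5.33 ± 0.44 at E11.5 (SD, n = 5 each), a difference of 7.28 (SE 0.21, 95% interval 6.82 to 7.74) or 155-fold (limma adjusted p = 2.2e-11).

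*Aqp1* is also a gene of endothelium, red cells and mesothelium, and markers of these cells moved in their own ways. Endothelial list means were 9.37, 10.58, 9.83, 9.02 and 10.86 on E17.5 replicates 1 to 5, against 6.69, 5.75, 6.34, 6.32 and 6.63 at E11.5, with *Pecam1*, *Emcn* and *Lyve1* higher by 5.27, 5.99 and 6.16. Over E17.5 replicates 2 to 5, *Aqp1* ranked as the endothelial mean did, whereas replicate 1 had the highest *Aqp1* signal and the lowest endothelial mean but 1. Erythroid markers were lower at E17.5 for 5 of 10 genes and higher for 1, with list means of 5.66 to 6.18 against 7.26 to 8.24 at E11.5. The widest falls were those of the embryonic globin genes *Hbb-y*, *Hba-x* and *Hbb-bh1* (-7.84, -6.72 and -6.04). *Hba-a2* was not called, at 12.47 in E17.5 and 12.64 in E11.5 samples, and *Alas2* was higher by 1.48. The erythroid list mean therefore does not measure how many red cells were present. Mesothelial markers were higher for 2 of 7 and lower for 2, with list means of 7.27 to 8.10 at E17.5, against 6.04 to 7.26 at E11.5, and *Msln* was higher by 5.48. Alveolar type 1 markers were higher for 9 of 10, with list means of 12.66, 12.29, 12.15, 12.21 and 12.50 on E17.5 replicates 1 to 5 and 9.10 to 9.39 at E11.5. Over all E17.5 replicates, *Aqp1* ranked as the alveolar type 1 mean did, except that replicates 3 and 4 changed places. The part of each cell type in the *Aqp1* signal was not tested.

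**Figure D2:**
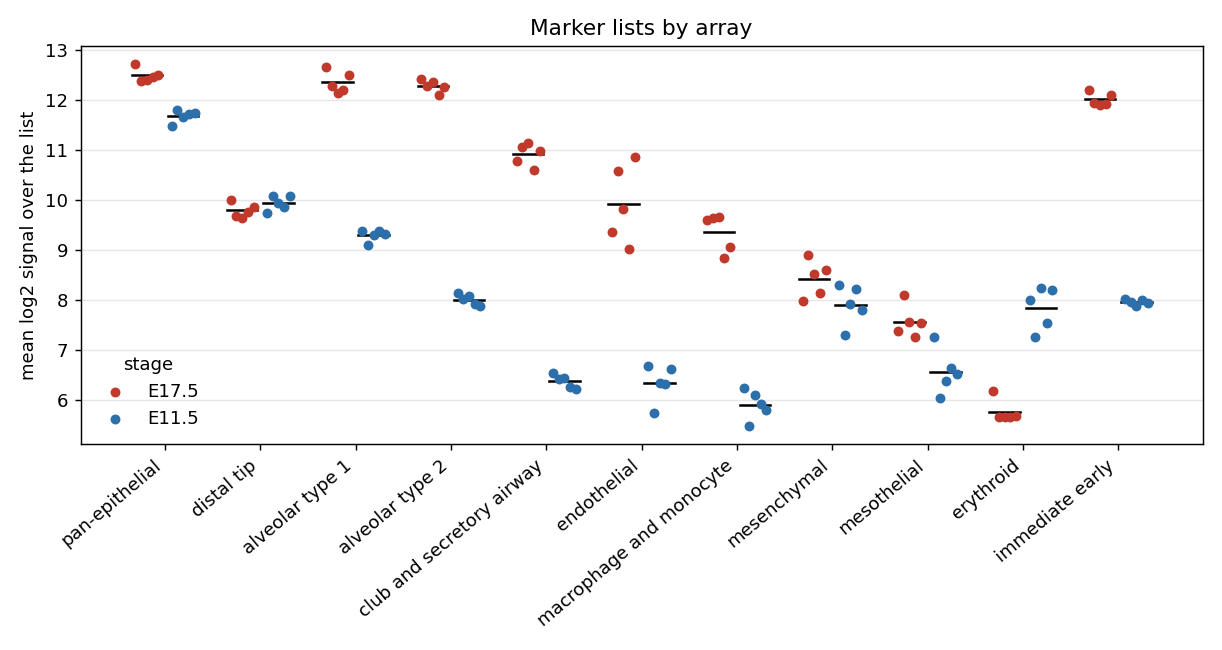
Mean log2 signal over each of 11 marker lists (vertical axis) on each array, with E17.5 (red) left of E11.5 (blue), 1 point per array and a bar at the mean of 5. Endothelial means are 9.02 to 10.86 (E17.5) and 5.75 to 6.69 (E11.5), immediate early means are 11.91 to 12.21 (E17.5) and 7.88 to 8.03 (E11.5), and erythroid means are lower at E17.5.

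*Aqp4* fell. Its signals were 5.10, 4.96, 4.64, 3.85 and 4.94 at E17.5, against 7.51, 7.16, 6.72, 6.83 and 6.83 at E11.5. E17.5 replicate 4 was the lowest, and even the highest E17.5 array stayed 1.62 below the lowest E11.5 array. The means were 4.70 ± 0.50 at E17.5 and 7.01 ± 0.32 at E11.5 (SD, n = 5 each), a difference of -2.31 (SE 0.23, 95% interval -2.82 to -1.80), which is 4.97-fold lower (limma adjusted p = 2.1e-06). At E17.5 only 14.5% to 31.0% of probe sets were dimmer than *Aqp4*, against 47.3% to 53.8% at E11.5. No detection call was among the values used here, so how much of the *Aqp4* signal at E17.5, or of the *Aqp1* signal at E11.5, is background is unknown.

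The *Aqp1* signal minus the *Aqp4* signal was 7.90 ± 0.30 at E17.5 and -1.68 ± 0.45 at E11.5 (SD, n = 5 each). The change was 9.59 (95% interval 9.14 to 10.16), which follows from the opposite changes of the genes and is given as a description.

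*Clcn2*, a chloride channel that opens on hyperpolarisation and is known from fetal airway epithelium, also fell. It had signals of 7.28, 7.49, 8.01, 7.88 and 7.76 at E17.5, against 9.74, 9.48, 9.56, 9.44 and 9.48 at E11.5. The E11.5 arrays were tightly grouped and the E17.5 arrays more spread, with 1.43 between the nearest arrays of the stages. The means were 7.68 ± 0.30 at E17.5 and 9.54 ± 0.12 at E11.5 (SD, n = 5 each), a difference of -1.86 (SE 0.14, 95% interval -2.15 to -1.56), which is 3.62-fold lower (limma adjusted p = 1e-07). It was brighter than 51.2% to 56.5% of probe sets at E17.5 and than 75.2% to 78.2% at E11.5.

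*Slc4a4*, which encodes a cotransporter that brings sodium and bicarbonate across the membrane together, had the smallest change. Signals were 7.31, 6.98, 6.26, 6.27 and 6.90 at E17.5, against 7.47, 7.89, 7.81, 7.73 and 7.93 at E11.5. E17.5 replicate 1 and E11.5 replicate 1 were only 0.16 apart, so that the stages barely separated. The means were 6.74 ± 0.47 at E17.5 and 7.76 ± 0.18 at E11.5 (SD, n = 5 each), a difference of -1.02 (SE 0.20, 95% interval -1.45 to -0.59), which is 2.03-fold lower (limma adjusted p = 0.00058). A change beyond 2-fold was not supported when that was the null hypothesis (limma treat, adjusted p = 1).

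**Figure D3:**
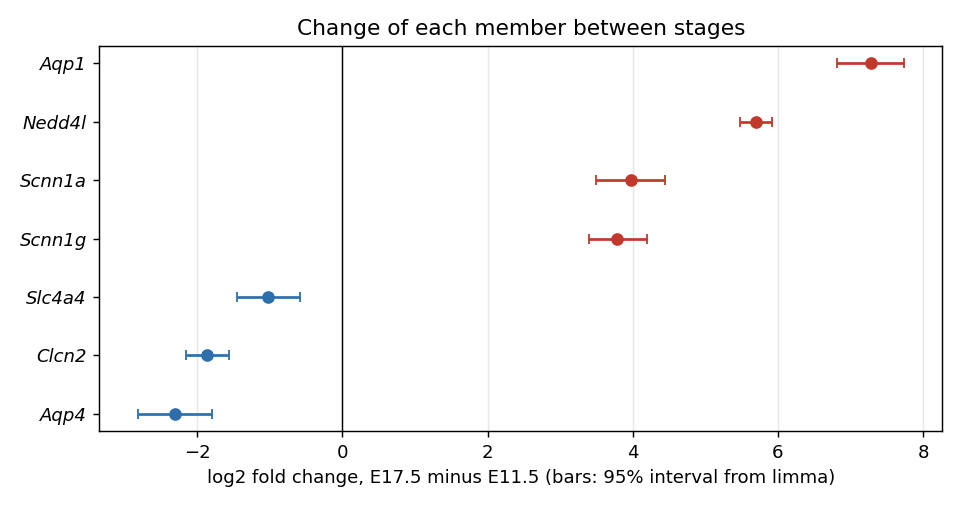
Difference of the mean log2 signals (horizontal axis, E17.5 minus E11.5) for each of the 7 genes, with bars for the 95% interval from limma and n = 5 arrays a stage. The 4 genes that were higher span 3.79 to 7.28 and the 3 that were lower span -2.31 to -1.02, and no interval reaches 0.

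The other genes of fluid transport were drawn from 5 lists, of which 97 genes were measured. At E17.5 a higher signal was called for 44 (45.4%), a lower one for 24 (24.7%) and neither for 29, with a median difference of 0.20 against 0.03 over all genes. Over all genes 36.9% were called higher and 31.5% lower, and the count of each list has to be read beside these shares. After quantile normalization the counts were 35 higher and 30 lower, so the balance between directions depends on the scaling. The shares over all genes are those of the values as deposited, so the counts after quantile normalization cannot be set against them. The ENaC list besides the members held 25 genes, *Scnn1b* and genes that regulate the channel. Of these, 11 were higher (44.0%, *Scnn1b* among them), 8 lower (32.0%) and 6 not called (median 0.12).

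Glucocorticoid handling showed the widest opposite changes among the ENaC regulators. *Hsd11b1*, whose enzyme regenerates active glucocorticoid inside cells, averaged 11.53 ± 0.74 at E17.5 and 4.99 ± 0.23 at E11.5 (SD, n = 5 each), 93.3-fold higher (limma adjusted p = 1.1e-09). Mesenchymal markers were higher at E17.5 for 4 of 12 genes (*Tcf21* by 4.95 and *Col1a2* by 2.77) and lower for 4. Smooth muscle and pericyte markers were higher for 4 of 8 genes (*Acta2* by 4.32) and lower for 3. The part of such cells in the *Hsd11b1* signal was not tested. *Hsd11b2*, whose enzyme inactivates glucocorticoid and so protects the mineralocorticoid receptor, averaged 5.95 ± 0.60 at E17.5 and 10.39 ± 0.31 at E11.5 and was 21.8-fold lower (limma adjusted p = 1.3e-08). *Sgk1*, a kinase induced by steroids that phosphorylates NEDD4L and so keeps ENaC at the surface, had signals of 13.14, 12.96, 12.95, 12.22 and 13.22 at E17.5, against 8.93, 8.31, 9.14, 9.05 and 9.28 at E11.5. It was 15.5-fold higher (difference 3.96, SE 0.21, limma adjusted p = 5.6e-09). *Sgk1* is also induced by serum and stress, and immediate early genes were higher at E17.5 for 16 of 17 genes, with list means of 11.91 to 12.21 against 7.88 to 8.03 at E11.5. Their part in the *Sgk1* signal was not tested.

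Sodium leaves the cell through Na,K-ATPase, for which 11 genes of the pump and its FXYD partners were analysed. Of these, 5 were higher (45.5%, against 36.9% of all genes), 4 lower (36.4%, against 31.5%) and 2 not called (median 0.24). *Atp1b1*, a beta subunit that the pump needs to reach the membrane, was 9.19-fold higher, at 12.68 ± 0.26 in E17.5 and 9.48 ± 0.04 in E11.5 samples (SD, n = 5 each; limma adjusted p = 1.7e-10). The FXYD family, small proteins that tune the pump, split. *Fxyd5*, *Fxyd3* and *Fxyd4* were 37.3-fold, 16.3-fold and 14.8-fold higher, whereas *Fxyd6* averaged 6.87 at E17.5 and 11.76 at E11.5 and was 29.7-fold lower (limma adjusted p = 4.2e-11). The others called were *Fxyd1*, higher by 1.14 (limma adjusted p = 0.015, but 0.087 after quantile normalization), and *Fxyd7*, *Fxyd2* and *Atp1b2*, which were lower by no more than 0.61. The *Fxyd7* call was lost with array weights (limma adjusted p = 0.067) and without E11.5 replicate 5 (0.051).

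Among 34 other chloride channels and cotransporters, 15 were higher (44.1%, against 36.9% of all genes), 7 lower (20.6%, against 31.5%) and 12 not called (median 0.17). *Cftr*, the cAMP-gated chloride channel of the apical membrane, averaged 10.80 ± 0.19 at E17.5 and 7.41 ± 0.07 at E11.5 (SD, n = 5 each), 10.5-fold higher (limma adjusted p = 2.8e-11), in the direction opposite to *Clcn2*. *Clic3* and *Clic5*, of the chloride intracellular channel family, were 107-fold and 8.53-fold higher. *Clcn6*, which encodes an endosomal relative of *Clcn2*, was 6.96-fold lower (limma adjusted p = 5.4e-09).

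Genes of bicarbonate and proton movement numbered 17, of which 9 were higher (52.9%, against 36.9% of all genes), 3 lower (17.6%, against 31.5%) and 5 not called (median 0.25). *Slc4a5*, which encodes a second electrogenic sodium bicarbonate cotransporter, was 33.9-fold higher (limma adjusted p = 2.8e-09) while *Slc4a4* was lower. *Car2*, a cytosolic carbonic anhydrase, and *Slc9a3r2*, a scaffold of ion transporters, were 6.51-fold and 5.49-fold higher. The 3 lower genes were *Ahcyl1* and the membrane-bound carbonic anhydrases *Car14* (4.84-fold lower) and *Car4* (2.98-fold lower). *Ahcyl1*, whose product binds and activates the *Slc4a4* cotransporter, averaged 7.05 ± 0.34 at E17.5 and 10.30 ± 0.18 at E11.5 (SD, n = 5 each) and was 9.50-fold lower. The stages overlapped for *Car4* (6.25 to 8.73 at E17.5, 8.57 to 9.79 at E11.5). For this gene a change beyond 2-fold was not supported (limma treat, adjusted p = 0.27).

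Besides *Aqp1* and *Aqp4*, 10 aquaporin genes were measured, of which 4 were higher, 2 lower and 4 not called (median 0.19). Of all genes 36.9% were called higher and 31.5% lower, so 4 higher genes of 10 do not set this list apart. *Aqp5*, the apical water channel of alveolar type 1 cells, had signals of 12.25, 11.54, 11.37, 10.60 and 11.64 at E17.5, against 6.11, 6.39, 6.32, 5.84 and 6.24 at E11.5. It was 39.4-fold higher (difference 5.30, SE 0.25, limma adjusted p = 1.3e-09). *Aqp11* was 2.04-fold higher, and the other called aquaporins, *Mip*, *Aqp7*, *Aqp6* and *Aqp9*, differed by 0.36, 0.26, -0.49 and -0.20. The smallest of these calls were borderline. That of *Aqp9* (limma adjusted p = 0.049) was lost in 11 alternatives, among them the replicate block (0.13), quantile normalization (0.24) and the omission of any 1 array but E11.5 replicates 1 and 2, which left 1 aquaporin lower. That of *Aqp7* was lost in 7, among them the block (0.059), median centring (0.21) and the omission of E11.5 replicate 2, 3 or 5 or E17.5 replicate 4, and that of *Mip* under median centring (0.083), which left 2 aquaporins higher. Large changes of the family were thus seen in *Aqp1*, *Aqp5* and *Aqp4*.

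**Figure D4:**
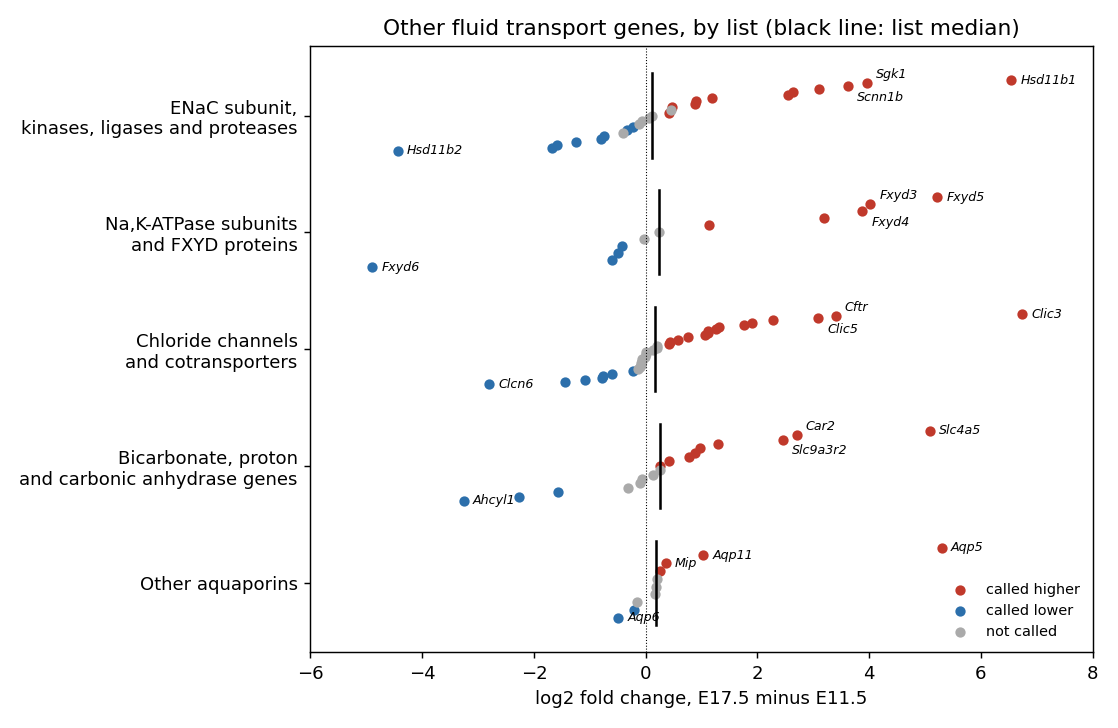
Difference of the mean log2 signals (horizontal axis, E17.5 minus E11.5) for 97 other fluid transport genes in 5 lists (vertical axis), coloured by limma's call, with a black line at each list's median and the largest called changes named. List medians lie between 0.12 and 0.25, while single genes range from -4.89 (*Fxyd6*) to 6.74 (*Clic3*).

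The genes whose signals followed each member most closely were found by Pearson's correlation over the 10 arrays, which mostly measures the step between the stages. They were *Svip* and *Dapk2* for *Scnn1a* (r = 0.9970 and 0.9966), *Maob* and *Vta1* for *Scnn1g* (0.9981 and 0.9977), and *Adh5* and *Eif4h* for *Nedd4l* (0.9996 and 0.9995). For *Aqp1* they were *Cavin2* and *Tgfb1* (0.9992 and 0.9991). Of the genes that fell, *Aqp4* was followed by *Ramp3* and *Nfib* (0.9838 and 0.9834), *Clcn2* by *Grwd1* and *Cldn9* (0.9978 and 0.9972) and *Slc4a4* by *Rap1b* and *Parg* (0.9890 and 0.9884). An r above 0.95 was reached by 3554 genes for *Nedd4l*, 3565 for *Aqp1*, 3244 for *Scnn1a* and 3360 for *Scnn1g*, but by 1912 for *Clcn2*, 508 for *Aqp4* and 126 for *Slc4a4*. The arrays share their stage in each case, so close likeness was common for the genes that rose and describes mostly the step. Within a stage of 5 arrays, likeness varied. It was 0.97 at E17.5 and 0.98 at E11.5 for *Slc4a4* with *Rap1b*, against -0.14 and 0.99 for *Nedd4l* with *Eif4h*.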

How the data were processed

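RNA from the 10 samples was amplified and labelled with NuGEN Ovation kits, hybridised to Affymetrix mouse arrays and analysed by the authors with Bioconductor in R. The authors deposited 1 log2 signal per probe set and array (21204 probe sets, 2.472 to 15.03). The log2 scale was read from that range, the method of background correction and normalization being not given in the sources used here. The number of arrays limits the precision.

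Platform annotation named 17981 probe sets with 1 gene, 514 with several and 2709 with none, and only the first were used. Entrez identifiers of 17832 matched the RefSeq table of GRCm38.p6, used for names. The probe set with the highest mean over 10 arrays stood for each of 17813 genes, with several to choose from for 167. No dim probe set was left out. limma 3.58.1 (lmFit, eBayes) in R 4.3.3 compared E17.5 with E11.5, with Benjamini-Hochberg adjustment over all genes and a threshold of 0.05. The fit was tested on simulated data. Within-array differences of 3 pairs of genes were compared by an exact permutation test.

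The members and lists were chosen with earlier results of these data known. Named were the members, up to 4 called genes of each list with the widest change, those behind counts of 5 or fewer, up to 3 genes of a marker list with the widest change, and the 2 genes most correlated with each member. P-values measure the spread between these arrays. Alternatives were quantile normalization, median centring, a filter on dim genes, other probe sets, a replicate block, array weights, other moderation, a test against a 2-fold change and leaving out each array.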

Additional observations from a re-analysis of the deposited data

Results flagged for a closer look

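In groups of 5 arrays, 14 of 214 had 1 array that stood apart from the rest of its stage, where chance gives about 11, and none of these concerned the 7 genes. Among genes that rose, they were *Hsd11b1* on E11.5 replicate 3 (5.39, nearest 4.91), *Sgk1* on E17.5 replicate 4 (12.22, nearest 12.95), *Scnn1b* on E17.5 replicate 1 (10.09, nearest 9.68), *Fxyd3* on E11.5 replicate 2 (7.67, nearest 7.17) and *Cftr* on E11.5 replicate 2 (7.28, nearest 7.42). The others of the transport lists were *Fxyd7* on E11.5 replicate 2 (4.14, nearest 5.00), *Car14* on E17.5 replicate 4 (8.18, nearest 8.62), *Slc9a3* on E11.5 replicate 4 (4.60, nearest 4.26) and *Aqp9* on E17.5 replicate 4 (3.55, nearest 3.72). Among markers, *Uchl1* was low (12.35, nearest 12.76) and *Syp* high (4.58, nearest 4.16) on E11.5 replicate 1, and the neural gene *Elavl4* was high on E17.5 replicate 4 (3.61, nearest 3.31). The erythroid list mean was high on E17.5 replicate 1 (6.18, nearest 5.69), and the ciliated airway list mean was low on E11.5 replicate 1 (5.71, nearest 5.99).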

How the results depend on the processing

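Over 19 alternatives, 10 of which left out 1 array, 128 of 129 values of the 7 genes kept their direction and their side of the threshold. The exception was *Slc4a4* against a 2-fold null hypothesis (-1.02, adjusted p = 1). Leaving out 1 array gave 3.82 to 4.14 for *Scnn1a*, 3.69 to 3.96 for *Scnn1g*, 5.65 to 5.75 for *Nedd4l*, 7.12 to 7.42 for *Aqp1*, -2.41 to -2.10 for *Aqp4*, -1.94 to -1.75 for *Clcn2* and -1.16 to -0.90 for *Slc4a4*. Without probe sets whose suffix marks shared transcripts or genes, *Nedd4l*, *Aqp4* and *Slc4a4* had no value, which left 3 members higher and 1 lower. These members kept their main values there, and the choice of the probe set with the largest variance gave the main value for every member. Those settings therefore could not test another probe set of the 7 genes. *Aqp4* dropped out under the filter on dim genes. Of the 97 other transport genes, 23 were higher and 8 lower by more than 2-fold in the test against that change, and 12 were lower once dim genes were left out, since fewer were tested. In single lists, that test left 6 higher and 3 lower in the ENaC list, 1 lower in the Na,K-ATPase list, 8 and 2 in the chloride list, 4 higher in the bicarbonate list, and 1 higher and 0 lower in the aquaporin list. The filter left 1 lower Na,K-ATPase gene, 2 lower chloride genes, and 1 higher and 0 lower aquaporins. Without suffixed probe sets 3 Na,K-ATPase genes were higher, 1 bicarbonate gene lower and 1 aquaporin lower. Over all genes the counts were 3437 higher and 2045 lower by more than 2-fold, and 3404 lower without dim genes, against 6568 and 5609. Of 732 values of the transport genes chosen by the naming rule, 0 reversed and 33 changed their side of the threshold.

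Same-numbered arrays of the stages did not deviate together (r from -0.29 to 0.07). The labels do not say whether equal numbers pair samples, and so few correlations cannot settle it. With the replicate number as a block, 4 members were higher and 3 lower, with 44 and 21 of the other transport genes. In that pairing the within-array change of *Scnn1a* against *Nedd4l* (-1.74) had an exact sign-flip p of 0.062, the smallest that 5 pairs allow, and that of *Aqp1* against *Aqp4* was 9.59.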
